A study of Mus musculus with 12 samples.

Results

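Dysplastic tongue epithelium was set against hyperplastic tongue epithelium, both from mice treated with 4-nitroquinoline 1-oxide (4-NQO), a carcinogen that forms DNA adducts and brings on hyperplasia, then dysplasia and at last squamous tumors of the tongue mucosa. The 6 samples whose titles name one of these stages, 3 dysplasia and 3 hyperplasia, were taken from the 12 samples of the series, which also holds 3 tumors of treated mice and 3 normal tongues of control mice. All mice were male CBA, and the treated ones drank 4-NQO at 100 ug/mL for 8 weeks. The labelled ages were 16, 24 and 16 weeks for dysplasia 1, 2 and 3, and 20, 16 and 20 weeks for hyperplasia 1, 2 and 3. Normal tongues 1, 2 and 3 were labelled 24, 12 and 20 weeks, and tumors 1, 2 and 3 were labelled 20, 16 and 24 weeks. Epithelial cells were cut from frozen sections with an infrared laser, away from stroma and muscle, and after amplification the RNA of each mouse went onto 1 array (Affymetrix Mouse Gene ST 2.0). Values are log2 expression levels, so that a difference of 1 is a doubling.

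The tongue is covered by a stratified squamous epithelium. Basal keratinocytes divide, and their daughters move up, stop dividing and build a cornified envelope, a shell of crosslinked proteins under the cell membrane. Many of these envelope proteins (loricrin, filaggrin and its fused S100 relatives, and the late cornified envelope and small proline-rich families) are encoded side by side in a gene cluster named the epidermal differentiation complex. The epithelium also houses T cells and Langerhans cells, and it lies over connective tissue and the skeletal muscle of the tongue.

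Keratinocyte identity did not separate the stages. Krt14, a keratin of basal cells, was at 12.51, 12.39 and 12.58 in dysplasia 1, 2 and 3, against 12.46, 12.08 and 12.57 in hyperplasia 1, 2 and 3. The mucosal keratin Krt13 was at 13.10, 12.39 and 12.97 in dysplasia, against 13.07, 12.97 and 12.92 in hyperplasia. The groups overlapped for both, and likewise for Krt5, Krt4, Trp63, Dsp, Cdh1 and Epcam, so that all 6 arrays carried the markers of their epithelial label. The median of all genes lay between 6.2 and 6.25 on these arrays. Pairs of arrays had a Pearson correlation over genes of 0.929 to 0.963 within dysplasia and 0.955 to 0.962 within hyperplasia. Across stages it was 0.933 to 0.964. Pairs that held dysplasia 1 were at 0.929 to 0.942, and all other pairs were at 0.948 to 0.964. Arrays stood apart in ways that touch the results below: dysplasia 1 carried a strong interferon response, hyperplasia 1 and 2 carried skeletal muscle transcripts, and hyperplasia 2 carried keratin-associated protein transcripts. Dysplasia 1 and hyperplasia 2 also had the lowest RNA integrity of their stages in the study's sample table, and with integrity as a covariate 0 genes were called. No hyperplasia sample was prepared on the same day as a dysplasia sample, so that stage and preparation day cannot be told apart.

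Across the 24477 genes tested, no gene passed an adjusted p of 0.05 in the limma fit, in either direction (0% called each way), and the smallest adjusted p was 0.667. At an unadjusted p under 0.05 there were 1112 genes (4.54%), with 623 higher (2.55%) and 489 lower (2.00%) in dysplasia. The mean of dysplasia was more than 1 above that of hyperplasia in 204 genes (0.833%) and more than 1 below it in 223 (0.911%). All 3 dysplasia samples lay above all 3 hyperplasia samples for 1242 genes (5.07%), and below them for 908 genes (3.71%), or 2150 genes without overlap in all (8.78%). The median difference over all genes was 0.01. For a single gene, the smallest p that an exact two-sided permutation of 3 and 3 mice allows is 0.1. The gene families below are therefore described by their values, and none of their members passed the adjusted test with all samples. Counts of their members without overlap or past 1 are to be read beside these shares of all genes.

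Of the 47 gene lists described, the late cornified envelope (Lce) list had the lowest median difference. The loricrin, filaggrin and fused S100 list was at -0.47 and the small proline-rich list at 0.26, while skeletal muscle was at -1.19. Lce proteins are small cysteine-rich proteins added late to the envelope. The median difference of the 21 measured Lce genes was -1.69, with all 21 differences below 0 and 17 of them beyond -1. In 4 of the 21 (19.0%) the groups did not overlap, all lower in dysplasia, beside 3.71% of all genes. Lce1c was at 10.57, 7.78 and 8.65 in dysplasia 1, 2 and 3, against 11.55, 11.40 and 11.65 in hyperplasia. All dysplasia samples were below all hyperplasia samples, and dysplasia 1 was the closest to them. The difference of the group means was -2.53 (SE 0.60, n = 3 each). Here and below, SE is the standard error from the limma fit over all 12 arrays, not from these 6 samples alone. Lce1d was at 10.34, 6.56 and 8.42 in dysplasia, against 10.55, 11.05 and 11.06 in hyperplasia, a difference of -2.45 (SE 0.69). Dysplasia 1 lay just under the lowest hyperplasia sample here. Lce1m had a different order, at 5.50, 5.62 and 5.66 in dysplasia, against 7.79, 7.01 and 5.80 in hyperplasia, so that only hyperplasia 1 and 2 were well above dysplasia. Lce1a1 had the most negative difference of the family, -3.10 (SE 1.04), with 8.67, 2.94 and 6.37 in dysplasia, against 8.32, 8.77 and 10.18 in hyperplasia, and the groups overlapped through dysplasia 1. Its value in dysplasia 2 was under the 5th percentile of that array, 3.07.

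The mean over the Lce genes shows the same split within dysplasia. It was 9.64 in dysplasia 1, 6.51 in dysplasia 2 and 7.59 in dysplasia 3, against 9.54, 9.45 and 9.61 in hyperplasia. Dysplasia 1 thus had the Lce level of hyperplasia, while dysplasia 2 and 3 were lower. Dysplasia 1 was at or above the lowest hyperplasia sample for 17 of the 21 genes (73.0% of all genes), and inside the hyperplasia range for 9 of them (42.6% of all genes). Dysplasia 2 and 3 were both below all hyperplasia samples for 20 of the 21, against 9.77% of all genes. Without dysplasia 1 the median difference was -2.48, 20 of the 21 genes were beyond -1 (1.27% of all genes), and single genes ran between -4.43 and -0.23.

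**Figure D1:**
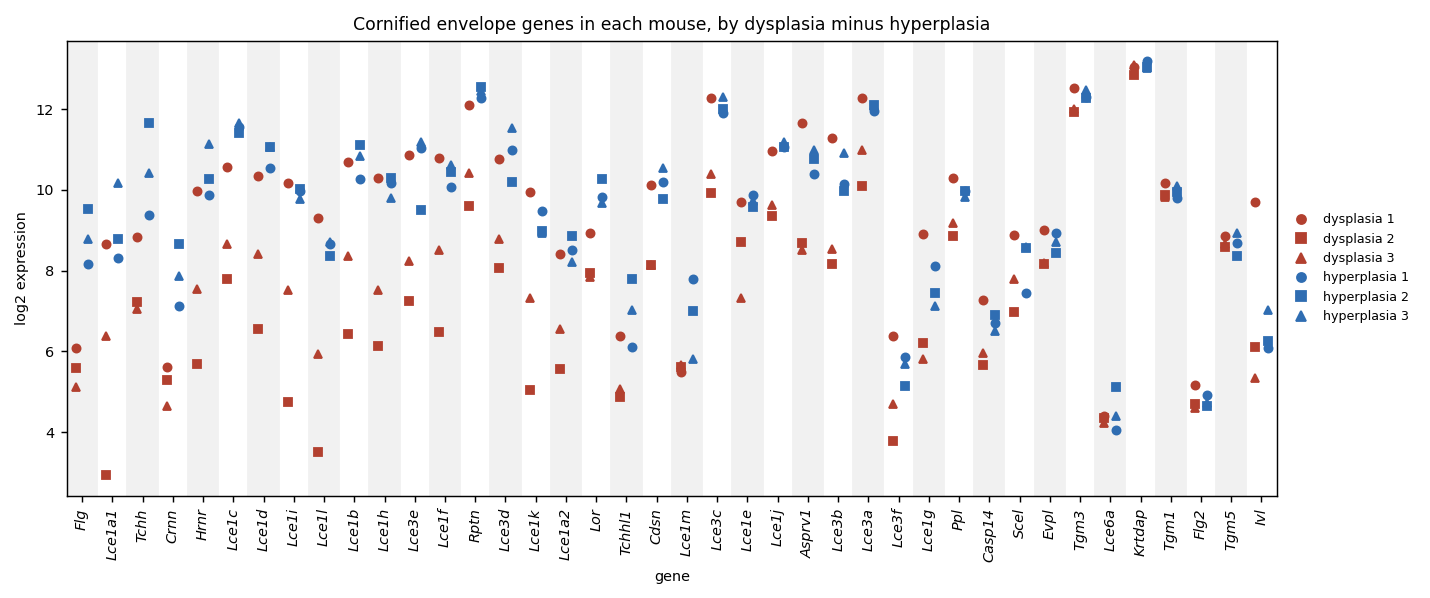
Log2 expression (vertical axis) of the 21 late cornified envelope genes and the 19 genes of the loricrin, filaggrin and fused S100 list in each mouse, ordered from the lowest to the highest difference; red symbols are dysplasia, blue symbols hyperplasia, and the symbol shape is the replicate. Dysplasia 2 and 3 sit below all hyperplasia samples in 20 of the 21 Lce genes, while dysplasia 1 is within their range in 9 and above it in 8, whereas for Flg and Crnn all 3 dysplasia samples sit below.

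Loricrin and 4 of the fused S100 proteins separated the stages in all 3 dysplasia samples, while other members of their list did not. Filaggrin (Flg) is made as a long precursor that, once cut, bundles keratin filaments in the cornified layer. It was at 6.09, 5.58 and 5.12 in dysplasia 1, 2 and 3, against 8.16, 9.53 and 8.77 in hyperplasia. All dysplasia samples lay well under the lowest hyperplasia sample, and the difference was -3.23 (SE 0.64), or 9.35-fold lower (limma adjusted p = 0.709). Cornulin (Crnn), a fused S100 protein of mucosal epithelia, was at 5.62, 5.28 and 4.65 in dysplasia, against 7.12, 8.67 and 7.86 in hyperplasia. Here too no sample overlapped, and the difference was -2.70 (SE 0.50). Trichohyalin (Tchh), which crosslinks keratin filaments in hair sheaths and in tongue papillae, was at 8.83, 7.22 and 7.06 in dysplasia, against 9.37, 11.65 and 10.41 in hyperplasia, a difference of -2.78 (SE 1.02). Repetin (Rptn) was at 12.09, 9.61 and 10.42 in dysplasia, against 12.27, 12.55 and 12.44 in hyperplasia, with dysplasia 1 close to the hyperplasia samples. Loricrin (Lor), the main protein of the epidermal envelope by mass, was at 8.93, 7.95 and 7.85 in dysplasia, against 9.82, 10.28 and 9.67 in hyperplasia. All dysplasia samples were lower, by -1.68 (SE 0.33) on average.

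Of the 19 genes of this list, 5 (26.3%) had no overlap and all 5 were lower in dysplasia, beside 3.71% of all genes. In 9 the difference was beyond -1, and the median difference was -0.47. Hornerin (Hrnr) and corneodesmosin (Cdsn, the glue of corneodesmosomes) differed by -2.68 and -1.37, with dysplasia 1 inside the hyperplasia range. The transglutaminases that crosslink the envelope were nearly level between the stages, with differences of 0.00 for Tgm1, -0.21 for Tgm3 and 0.05 for Tgm5. Involucrin (Ivl), an early envelope protein, stood out in dysplasia 1 at 9.69, with 6.10 and 5.35 in dysplasia 2 and 3 and 6.09, 6.25 and 7.02 in hyperplasia. On average the list was at 9.19, 7.72 and 7.84 in dysplasia, against 9.02, 9.46 and 9.41 in hyperplasia.

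The small proline-rich (Sprr) genes, which lie in the same cluster and code for bridging proteins of the envelope, did not share this pattern. Their 14 measured members had a median difference of 0.26, and none separated the groups. Sprr2a3 was at 10.76, 8.43 and 9.43 in dysplasia, against 6.33, 7.36 and 9.34 in hyperplasia, and Sprr2k at 5.25, 5.08 and 7.42 in dysplasia, against 6.37, 7.88 and 7.74 in hyperplasia. The groups overlapped for both, in opposite directions. The spread within hyperplasia was wide, since hyperplasia 1 had a family mean of 7.40 and hyperplasia 2 and 3 had 9.55 and 9.79.

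Taking the whole gene cluster from Tchhl1 to Lor by the gene order of RefSeq, 51 members were measured. Of these, 11 (21.6%) had no overlap and were lower in dysplasia and 0 were higher, beside 3.71% and 5.07% of all genes. This set was drawn after the values were seen, and it contains the Lce and Sprr genes and the fused S100 genes. Its median difference was -1.12, with 27 genes beyond -1 and 3 over 1. Outside the lists it adds Kprp, a keratinocyte proline-rich protein, at 10.57, 7.90 and 8.74 in dysplasia, against 10.78, 10.58 and 10.90 in hyperplasia, and 2310050C09Rik at 10.67, 7.37 and 9.08 in dysplasia, against 11.47, 10.72 and 10.88 in hyperplasia. Dysplasia 2 was the lowest sample for both.

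With dysplasia 1 left out, 11 genes passed the limma test at an adjusted p of 0.05, 9 lower (0.0368% of all genes) and 2 higher (0.00817%). The lower ones were Lce1c, Lce1d, Lce1h, Lce3c, Cdsn, Dnase1l2, Fndc9, Cpa4 and Eps8l1. Of these, 5 belong to the cornified envelope lists, and Dnase1l2 codes for a DNase of cornifying keratinocytes. Dnase1l2 had 5.82 on average in dysplasia 2 and 3, which was 3.17 lower than in hyperplasia on the log2 scale (limma adjusted p = 0.0392). Lce1c fell by 3.32 (limma adjusted p = 0.0439) and Cdsn fell by 2.03 (limma adjusted p = 0.0392) in the same fit. The higher ones were Wfdc18, a small secreted protein of the whey acidic protein type, and the T cell receptor segment Trdv4. Wfdc18 was 3.45 higher in dysplasia 2 and 3 (limma adjusted p = 0.0392). This choice of samples was one of 6 that each left out 1 mouse.

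Other differentiation genes were less uniform. Among 18 suprabasal keratinocyte genes no gene separated the groups, the median difference was -0.19, and 4 were beyond -1. Krt76, a keratin of oral epithelium, was at 8.44, 6.50 and 6.08 in dysplasia, against 8.16, 10.67 and 8.46 in hyperplasia, with dysplasia 1 inside the hyperplasia range. Nccrp1 was the gene with the second smallest p of all, at 7.53, 7.66 and 7.73 in dysplasia, against 9.23, 9.42 and 9.60 in hyperplasia. The samples of each stage lay close together and the stages were far apart. It belongs to no list and is named here for its p. The 17 basal keratinocyte genes had a median difference of 0.03 and the 11 desmosome genes 0.01. The integrin subunits Itgb1 (0.52) and Itga3 (0.39) were the basal genes without overlap (11.8%, beside 5.07% of all genes).

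Keratin-associated proteins, which crosslink hard keratins in hair and in the filiform papillae of the tongue, were set apart by 1 hyperplasia mouse. The mean of the 26 genes was 5.48, 5.45 and 5.61 in dysplasia, against 5.63, 7.85 and 5.32 in hyperplasia 1, 2 and 3. Hyperplasia 2 was the highest of the 6 samples for 19 of the 26 genes, against 15.3% of all genes. The median difference was -0.66, and it was 0.24 without hyperplasia 1 and 2. Among the members 1 had no overlap in each direction (3.85% each), beside 5.07% higher and 3.71% lower of all genes. Krtap8-1 was higher in dysplasia, at 5.0, 4.85 and 4.92, against 4.41, 4.52 and 4.75 in hyperplasia. Krtap13 was lower, at 5.46, 5.15 and 5.79 in dysplasia, against 8.62, 11.43 and 6.78 in hyperplasia, and its difference of -3.47 was the most negative of all named genes. The 14 hard keratins had a median difference of -0.36, and Krt86 and Krt34 were high in hyperplasia 2 only, at 8.80 and 7.68. Probe sets of the Lce, Krtap, Sprr2 and H2 families target closely related sequences, so that members of a family may share signal.

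**Figure D2:**
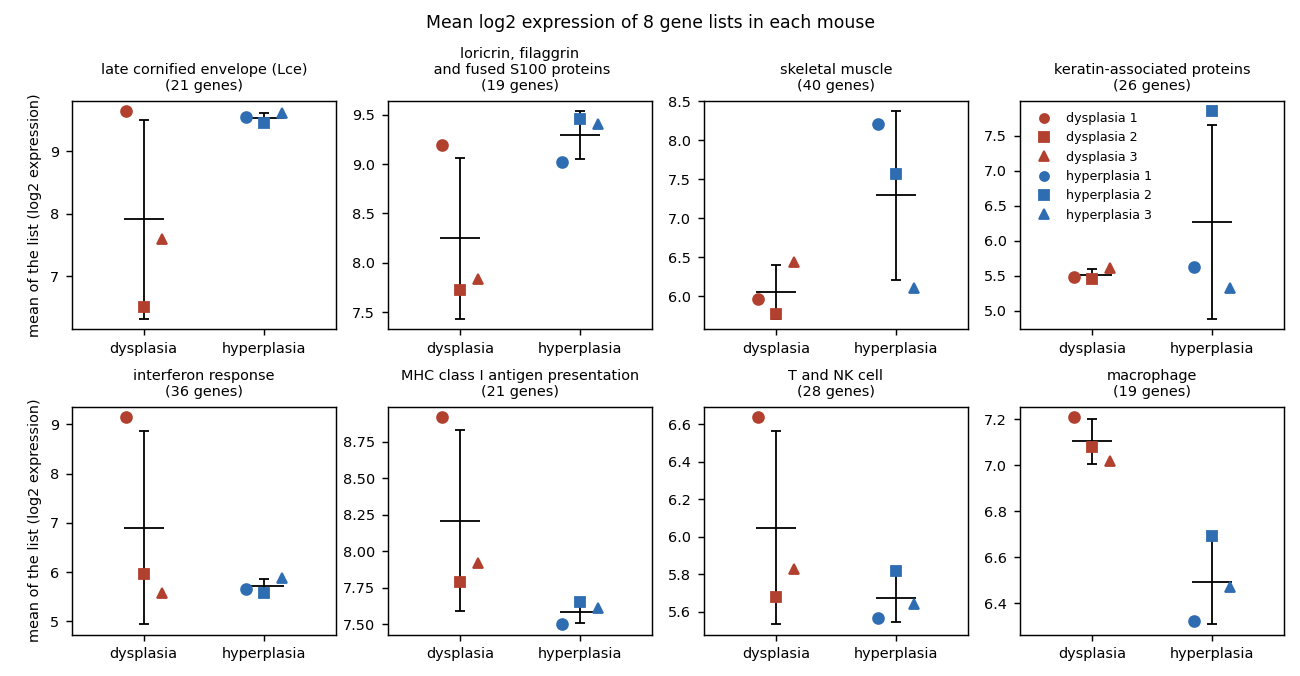
Mean log2 expression of the measured members of 8 gene lists in each mouse (points) with the group mean and SD of 3 mice (bars); every panel has its own vertical scale. Dysplasia 1 sits with hyperplasia for the Lce list and above all others for the interferon list, hyperplasia 1 and 2 sit above the rest for skeletal muscle, and the macrophage means of the stages do not overlap.

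Skeletal muscle transcripts were lower in dysplasia, through 2 of the 3 hyperplasia mice. Of 40 sarcomere and muscle metabolism genes, 25 had a difference beyond -1, 6 had no overlap and were lower in dysplasia, and the median difference was -1.19. Averaged over the list, the level was 5.96, 5.77 and 6.44 in dysplasia, against 8.21, 7.57 and 6.10 in hyperplasia 1, 2 and 3. Hyperplasia 3 thus lay within the dysplasia range, and hyperplasia 1 and 2 were both above all dysplasia samples for 31 of the 40 genes, against 8.20% of all genes. Skeletal actin (Acta1) was at 7.14, 5.68 and 9.22 in dysplasia, against 11.90, 11.07 and 8.30 in hyperplasia. Dysplasia 3 was above hyperplasia 3. Muscle creatine kinase (Ckm) was at 6.13, 5.70 and 7.21 in dysplasia, against 9.48, 8.61 and 6.0 in hyperplasia, and Myh4, a fast myosin heavy chain, was at 7.28, 6.81 and 6.93, against 10.23, 9.92 and 6.48. Hyperplasia 3 lay within the dysplasia range for Ckm and below it for Myh4. Fast troponin T (Tnnt3) followed the same order, at 6.08, 6.48 and 7.88 in dysplasia, against 10.59, 9.58 and 6.89 in hyperplasia. Since each sample is a mixture, fewer cells of a type and less RNA per cell cannot be told apart.

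Desmin (Des), the intermediate filament of muscle cells, separated the groups, at 5.25, 5.82 and 5.28 in dysplasia, against 7.86, 8.43 and 6.59 in hyperplasia. Its difference was -2.18 (SE 0.73). The other separated members were Actn2, Myot, Ryr1, Tcap (-1.81) and Xirp2. The slow-fiber troponins Tnni1 (0.26) and Tnnt1 (0.35) and Myh2 (0.23), a fast oxidative myosin, overlapped between the stages. The 9 genes of muscle stem cells and muscle regulators had a median difference of -0.14. Myod1 (-0.29) was the member without overlap (11.1%, beside 3.71% of all genes).

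The muscle level was then taken into the fit, to see how many of the lower genes kept their difference. With the mean of the muscle list as a covariate in the fit, the median difference of the muscle genes was 0.02, which the covariate brings about by construction. Of the 223 genes below -1, 149 (66.8%) were still below -1 in this fit. Other genes passed -1 in it, so that 262 genes were below -1 in all. The share kept therefore does not measure how much of the lower genes muscle accounts for. Without hyperplasia 1 and 2, where hyperplasia is 1 mouse, 113 of the 223 (50.7%) were still below -1 and the muscle median was -0.03. The muscle list itself made up 25 of the 223 genes (11.2%), and the keratinocyte lists made up 45 (20.2%). The cornified genes kept their differences in the covariate fit: the Lce median was -1.85, Flg was at -3.47, Crnn at -3.19 and Lor at -1.88. Without hyperplasia 1 and 2 the Lce median was -1.57 and Flg was at -3.18. The desmin difference was -0.87 with the covariate, against -2.18 without it.

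Connective tissue genes were partly lower in dysplasia. Decorin (Dcn), a small proteoglycan of collagen fibers, was at 6.76, 8.34 and 9.37 in dysplasia, against 9.58, 11.10 and 9.40 in hyperplasia, so that dysplasia 3 nearly met hyperplasia 3. The difference was -1.87 (SE 0.59), and -1.17 without dysplasia 1. Fibronectin (Fn1) was at 6.29, 7.03 and 7.11 in dysplasia, against 7.98, 8.80 and 7.12 in hyperplasia, and Col5a1 was the third member without overlap (-0.34). These 3 of 19 genes (15.8%) were all lower in dysplasia, beside 3.71% of all genes. Col1a1, the main fibroblast collagen, was level (0.01). The median of the 19 fibroblast and matrix genes was -0.27, and it was -0.13 without dysplasia 1 and -0.04 without hyperplasia 1 and 2. Hyperplasia 2 was the highest of the 6 samples for 10 of the 19 genes (52.6%), against 15.3% of all genes. The 12 endothelial genes had a median of -0.13, and Pecam1 (-0.18) and Cdh5 (-0.35) overlapped between the stages.

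Some T cell genes were higher in all 3 dysplasia mice, while the means of the T and NK cell list overlapped. These means were 6.64, 5.68 and 5.83 in dysplasia 1, 2 and 3, against 5.57, 5.82 and 5.64 in hyperplasia. The CD3 chains carry the signal of the T cell receptor. Cd3g was at 8.00, 7.88 and 7.51 in dysplasia, against 5.43, 6.58 and 5.85 in hyperplasia, a difference of 1.84 (SE 0.33) and the smallest p of all genes (limma adjusted p = 0.667). The 3 dysplasia mice were alike here, and their lowest value was above the highest hyperplasia value. Cd3d was at 9.55, 7.47 and 7.17 in dysplasia, against 5.51, 5.78 and 5.74 in hyperplasia, with dysplasia 1 the highest and no overlap. Its difference was 2.39 (SE 0.52), and 1.64 without dysplasia 1. Cd3e was at 7.60, 6.64 and 7.05 in dysplasia, against 5.93, 6.57 and 6.46 in hyperplasia, which separated only narrowly. Of the 28 T and NK cell genes 6 (21.4%) had no overlap, all higher in dysplasia, beside 5.07% of all genes. In 2 the difference was over 1 (Cd3d and Cd3g).

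The coreceptor and cytotoxic genes did not separate the stages in the same way. Cd8a was at 6.70, 5.46 and 5.22 in dysplasia, against 5.32, 5.65 and 5.39 in hyperplasia, so that only dysplasia 1 was high. Cd8b1, Cd4, Klrd1 and Klrk1 were likewise highest in dysplasia 1, at 8.91, 6.55, 7.58 and 6.20, and overlapped in the other mice. Over the list, dysplasia 1 was the highest of the 6 samples for 21 of 28 genes, against 22.8% of all genes, and the median difference of 0.31 was 0.00 without it. Nkg7, a granule protein of cytotoxic cells, separated the stages but mainly through dysplasia 1, at 8.26, 6.50 and 6.44 in dysplasia, against 6.17, 6.36 and 6.22 in hyperplasia.

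Outside the lists, more T cell genes stood among those with the smallest p, and they are named here after their values were seen. Cd96, a receptor of T and NK cells, was at 6.25, 6.10 and 5.76 in dysplasia, against 5.10, 4.37 and 4.22 in hyperplasia. Klrc1, which codes for an inhibitory lectin-like receptor, was at 5.43, 4.06 and 4.30 in dysplasia, against 3.10, 3.15 and 2.41 in hyperplasia. Of the 27 Klr receptors measured, 2 were higher and 2 lower in dysplasia without overlap (7.41% each), and their median of 0.16 was -0.10 without dysplasia 1. Trbv13-2, a variable segment of the T cell receptor beta chain, was at 5.78, 5.01 and 4.51 in dysplasia, against 3.04, 3.41 and 3.13 in hyperplasia, a difference of 1.90 (SE 0.37). Cd96, Klrc1 and Trbv13-2 did not overlap between the stages. The hyperplasia values of Klrc1 and Trbv13-2 lay near the floor of those arrays, whose 5th percentiles were 3.03, 3.1 and 3.06. The dysplasia values of both genes were below the array medians. Trdv4, a variable segment of the delta chain, had another order, at 5.51, 8.02 and 7.98 in dysplasia, against 5.67, 6.19 and 5.45 in hyperplasia: dysplasia 1 was at the hyperplasia level and the other dysplasia mice were not. Of 150 receptor segments measured, 12 (8.00%) had no overlap and were higher in dysplasia and 2 (1.33%) were lower, beside 5.07% and 3.71% of all genes, and the mean level of the segments, 4.75 to 5.07, was below the array medians.

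**Figure D3:**
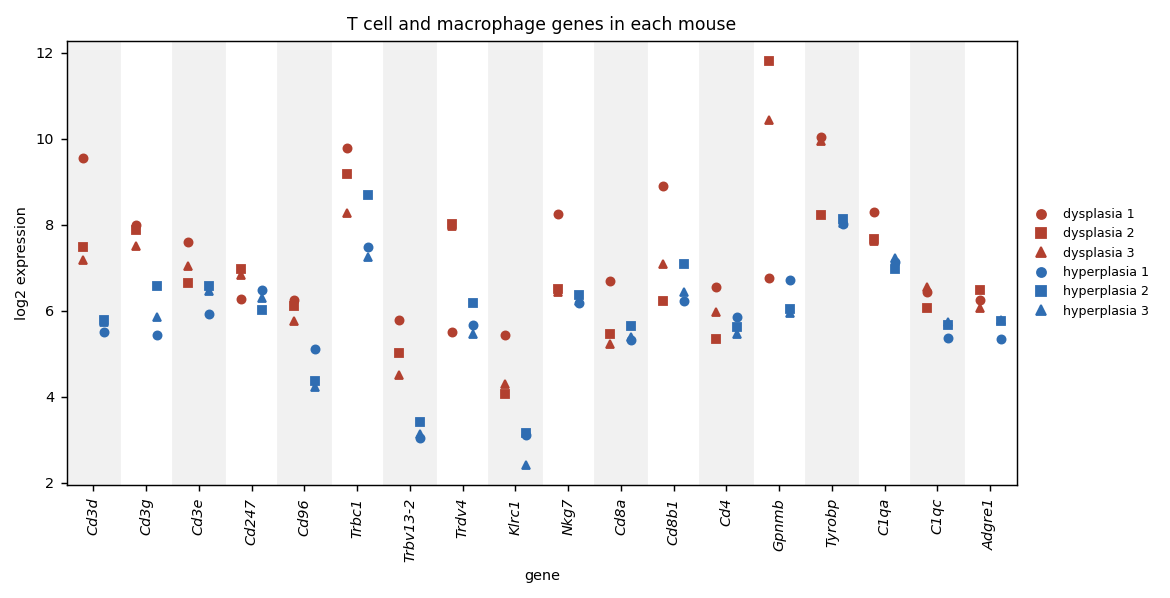
Log2 expression (vertical axis) of T cell genes (Cd3d to Cd4) and macrophage genes (Gpnmb to Adgre1) in each mouse; red symbols are dysplasia, blue symbols hyperplasia. Cd3g is at 7.51 to 8.00 in dysplasia and 5.43 to 6.58 in hyperplasia, while Cd8a and Cd8b1 are high in dysplasia 1 only and Trdv4 and Gpnmb in dysplasia 2 and 3.

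Of 19 macrophage genes 6 (31.6%) were higher in all 3 dysplasia mice without overlap, beside 5.07% of all genes. In the other direction 1 gene, Mrc1 (-0.26), was lower (5.26%, beside 3.71% of all genes). The mean of the 19 genes was 7.21, 7.08 and 7.02 in dysplasia, against 6.32, 6.69 and 6.47 in hyperplasia, with no overlap. The median difference was 0.44, and it was 0.34 without dysplasia 1. Gpnmb, a membrane glycoprotein of macrophages and pigment cells, had the highest difference of all named genes, 3.43 (SE 1.20), at 6.75, 11.81 and 10.44 in dysplasia, against 6.71, 6.05 and 5.94 in hyperplasia. Dysplasia 2 and 3 carried this difference, and dysplasia 1 was just above hyperplasia 1. Without Gpnmb, a choice made after its values were seen, the list mean was 7.24, 6.81 and 6.83 in dysplasia, against 6.29, 6.73 and 6.50 in hyperplasia, so that dysplasia 2 and 3 were close to hyperplasia 2, and the median difference was 0.38. Tyrobp, an adaptor of activating receptors on myeloid and NK cells, was at 10.03, 8.22 and 9.94 in dysplasia, against 8.02, 8.14 and 8.05 in hyperplasia. The complement gene C1qa was at 8.30, 7.67 and 7.61 in dysplasia, against 7.14, 6.98 and 7.23, and Adgre1, which codes for the macrophage antigen F4/80, was at 6.24, 6.47 and 6.07, against 5.35, 5.77 and 5.78. Both separated the stages, by 0.74 and 0.63.

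The MHC class II and Langerhans cell list had nearly the same median as the macrophage list, 0.43, with 15 of its 16 genes above 0. Without overlap 3 of them (18.8%), Ccr7, Clec9a and Flt3, were higher in dysplasia, beside 5.07% of all genes. Its mean was 7.28, 6.72 and 6.77 in dysplasia, against 6.49, 6.70 and 6.40 in hyperplasia, so that dysplasia 2 was only just above hyperplasia 2, and the median was 0.20 without dysplasia 1. Langerin (Cd207), the defining marker of Langerhans cells, was at 6.18, 6.56 and 6.93 in dysplasia, against 6.91, 6.59 and 5.94 in hyperplasia, which overlapped fully. The other leukocyte lists were closer to level, with medians of 0.10 for 11 neutrophil genes, 0.00 for 12 mast cell genes and 0.08 for 9 B and plasma cell genes. Ly6g (neutrophils), Cpa3 (mast cells) and Cd8a overlapped between the stages.

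The interferon response was high in 1 dysplasia mouse. Interferons bind receptors whose signal turns on a set of antiviral genes and antigen presentation genes. Of 36 interferon response genes 25 had a difference over 1, and the median difference was 1.26. In 4 (11.1%), Gbp7, Irf1, Irgm1 and Zbp1, the groups did not overlap, all higher in dysplasia, beside 5.07% of all genes. The mean of the list was 9.15 in dysplasia 1, 5.96 in dysplasia 2 and 5.58 in dysplasia 3, against 5.66, 5.58 and 5.88 in hyperplasia. Dysplasia 2 and 3 were close to the hyperplasia samples. Dysplasia 1 was the highest of the 6 samples for 35 of the 36 genes, and more than 1 above every other sample for 33 of them, against 1.38% of all genes. Without dysplasia 1 the median difference of the list was 0.00.

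Single members show the size. The ubiquitin-like modifier Isg15 was at 9.79, 5.46 and 5.11 in dysplasia, against 4.83, 3.82 and 5.70 in hyperplasia. The guanylate-binding protein gene Gbp2 was at 10.40, 5.82 and 5.22 in dysplasia, against 5.05, 4.24 and 5.68 in hyperplasia. The chemokine gene Cxcl9, which draws T cells that carry CXCR3, was at 11.81, 7.73 and 4.69 in dysplasia, against 6.92, 4.56 and 7.19 in hyperplasia. In all 3, dysplasia 1 was far above the rest and dysplasia 2 and 3 were among the hyperplasia samples or next to them. Irgm1, an immunity-related GTPase, separated the stages by less than the rounding, with 9.80, 6.11 and 6.09 in dysplasia, against 6.09, 5.93 and 6.04 in hyperplasia. The interferon gamma gene Ifng itself was at 5.27, 4.71 and 5.25 in dysplasia, against 5.16, 5.54 and 5.47 in hyperplasia.

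**Figure D4:**
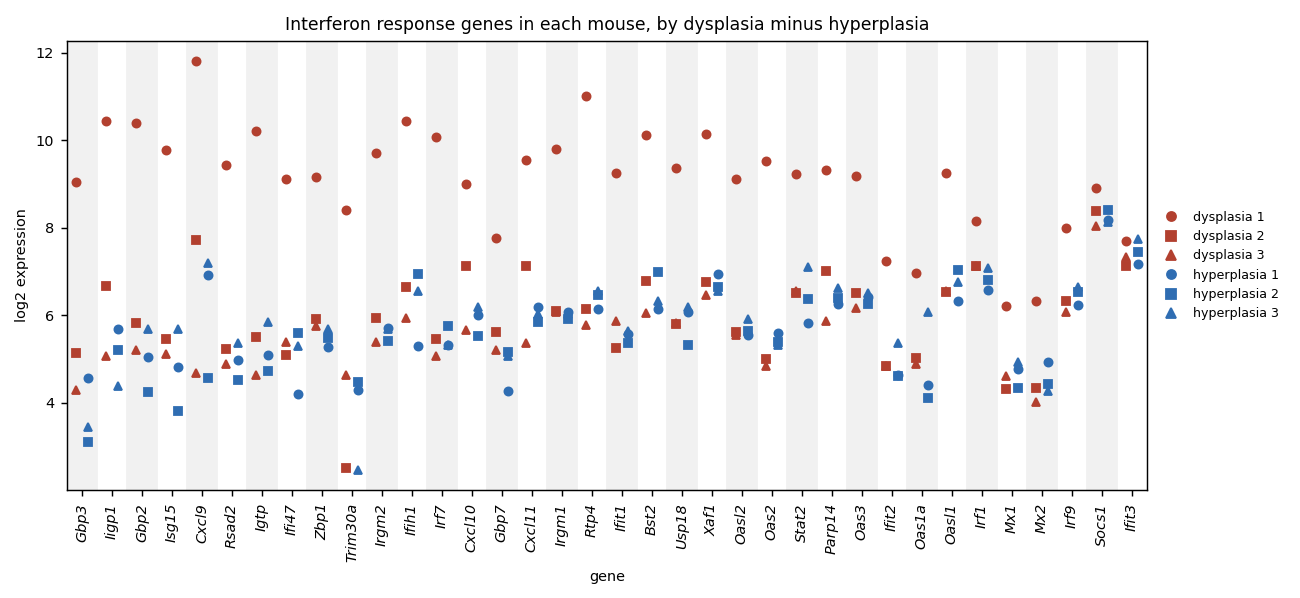
Log2 expression (vertical axis) of the 36 interferon response genes in each mouse, ordered from the highest to the lowest difference; red symbols are dysplasia, blue symbols hyperplasia. The red circle of dysplasia 1 lies above all other samples for 35 of the 36 genes.

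The promoters of these genes were read for the interferon-stimulated response element, a short motif known from the promoters of interferon-induced genes. The search was for GAAA, any 2 bases and GAAA again, on both strands, in the RefSeq window of 250 bases before to 50 bases after each start (GRCm38.p6). Of the 36 genes 27 had an entry, and 18 of the 27 (66.7%) held the motif, as did 5 of 18 MHC class I presentation genes (27.8%), 0 of 30 muscle genes and 3.99% of all 27025 genes with an entry. The motif was also held by interferon list members that differed little between the stages, Ifit3 (-0.07) and Socs1 (0.20). Stretches of 6 genes are shown to let the motif be seen, B2m of the MHC class I list and the others of the interferon list. The latter were high in dysplasia 1, while B2m was only somewhat higher there. The stretches run 5′ to 3′ on the strand of the gene, with the matched bases in capitals, and all end before the start site.
Isg15, chr4:156200850-156200921, minus strand: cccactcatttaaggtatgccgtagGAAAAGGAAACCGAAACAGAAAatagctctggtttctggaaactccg
Gbp2, chr3:142620579-142620638, plus strand: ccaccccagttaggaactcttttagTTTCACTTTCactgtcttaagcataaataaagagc
Igtp, chr11:58199497-58199555, plus strand: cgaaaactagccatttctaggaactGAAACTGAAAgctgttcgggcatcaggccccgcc
Irgm2, chr11:58214888-58214947, plus strand: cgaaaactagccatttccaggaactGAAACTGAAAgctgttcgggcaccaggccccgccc
Irgm1, chr11:48871421-48871475, minus strand: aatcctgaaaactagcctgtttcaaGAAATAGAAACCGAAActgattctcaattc
B2m, chr2:122147523-122147582, plus strand: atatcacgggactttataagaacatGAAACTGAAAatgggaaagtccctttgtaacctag
Isg15 holds 3 overlapping matches and Irgm1 holds 2. Igtp and Irgm2, both immunity-related GTPase genes, have nearly the same stretch. A match is a description of letters and says nothing on binding in these samples.

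Antigen presentation by MHC class I showed the same mouse and, in part, the others. Over the 21 genes the mean was 8.92, 7.79 and 7.92 in dysplasia, against 7.50, 7.65 and 7.61 in hyperplasia, with no overlap, and dysplasia 1 was the highest sample for 17 genes. The median difference was 0.60, and it was 0.17 without dysplasia 1. The light chain B2m was at 12.90, 12.25 and 12.46 in dysplasia, against 11.21, 11.86 and 12.08 in hyperplasia, and the heavy chain H2-K1 at 9.99, 8.64 and 9.02, against 7.21, 8.36 and 8.62. The immunoproteasome subunit Psmb9 was at 11.25, 8.95 and 9.09 in dysplasia, against 7.42, 8.63 and 8.36 in hyperplasia. For these 3 (14.3% of the list, beside 5.07% of all genes) all dysplasia samples were above all hyperplasia samples. Dysplasia 2 and 3 were close to the highest hyperplasia sample. Of the 13 inflammasome genes, Ifi205 was at 7.29, 4.13 and 4.88 in dysplasia, against 3.61, 3.37 and 3.67 in hyperplasia, and Casp1 was the other member without overlap (0.28). These 2 genes (15.4%) were both higher in dysplasia, beside 5.07% of all genes.

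Among all 204 genes with a difference over 1, dysplasia 1 was the highest of the 6 samples for 145 (71.1%), against 22.8% of all genes. The 204 were picked for a high dysplasia mean, so that a dysplasia sample was likely to be the highest. The share of all genes is therefore no like-for-like yardstick. Without dysplasia 1, 83 of the 204 (40.7%) still had a difference over 1, and 171 of all genes did. With the mean of the interferon list as a covariate 81 of them (39.7%) did, and with the muscle mean 165 (80.9%). The interferon, MHC class I and inflammasome lists held 32 of the 204 genes (15.7%). Cd3g was at 1.78 with the interferon covariate and 1.86 with the muscle covariate, and Cd3d at 1.79 and 2.30. The Lce median was -2.33 with the interferon covariate. The macrophage median was 0.37 with the interferon covariate and 0.42 with the muscle covariate.

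**Figure D5:**
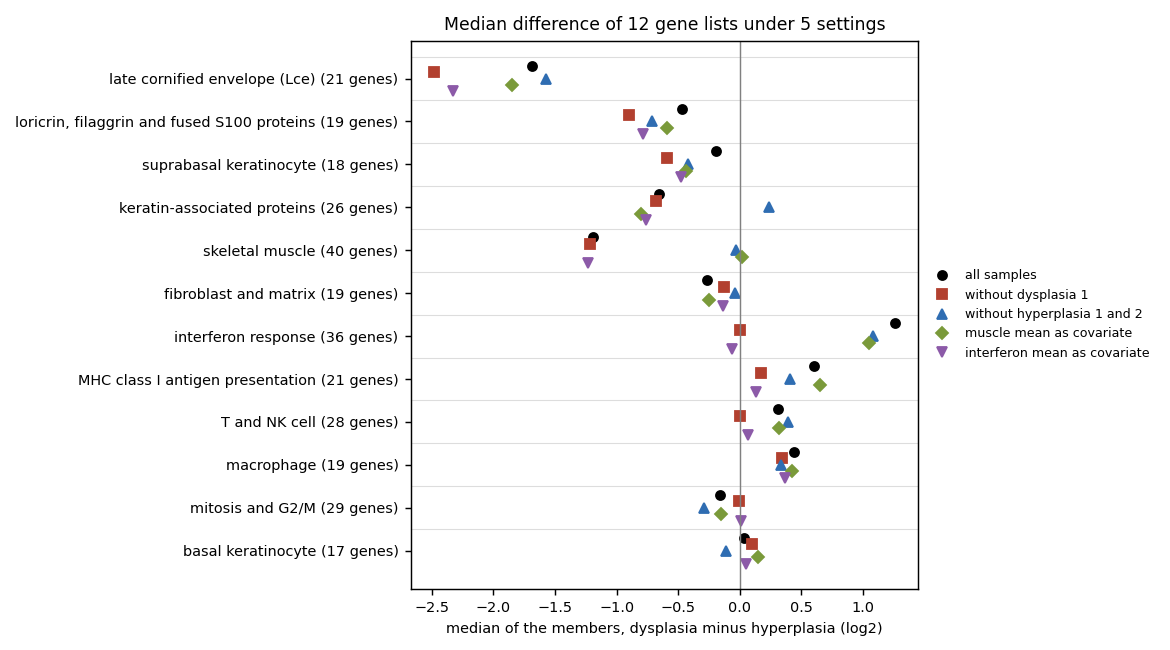
Median difference of the members (horizontal axis, log2, dysplasia minus hyperplasia) of 12 gene lists under 5 settings: all samples, without dysplasia 1, without hyperplasia 1 and 2, and with the muscle or the interferon mean as a covariate. The muscle median moves to -0.03 without hyperplasia 1 and 2 and, by construction, to 0.02 with the muscle covariate. The interferon median moves to 0.00 without dysplasia 1, and the Lce median stays between -2.48 and -1.57.

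By the rule for single genes, the 10 highest differences among separated genes above the median level were those of Gpnmb, Cd3d, Cd3g, AW112010, Tmprss11b, Psmb9, Parp12, Lgals9, Gstp3 and Sfi1. Tmprss11b, a membrane serine protease of squamous epithelium, was at 9.65, 8.45 and 9.01 in dysplasia, against 6.43, 7.52 and 8.28 in hyperplasia. All dysplasia mice were higher, by 1.63 (SE 0.48), with hyperplasia 3 next to dysplasia 2. Gstp3, a glutathione transferase, was at 7.66, 8.38 and 6.60 in dysplasia, against 6.17, 6.13 and 5.77 in hyperplasia. Parp12 and Lgals9 were high mainly in dysplasia 1, at 9.64 and 10.98, and their differences of 1.54 each were 0.68 and 0.70 without it. The 10 lowest were those of Krtap13, Flg, Tchh, Crnn, Lce1c, Lce1d, Des, Snora75, 2310050C09Rik and Dcn, of which 6 belong to the cornified envelope cluster on chromosome 3. The small nucleolar RNA Snora75 was at 6.11, 5.28 and 6.62 in dysplasia, against 8.26, 7.79 and 8.41 in hyperplasia. All 20 genes kept the sign of their difference under every alternative run. They were picked as separated genes, so that leaving out mice could not change the sign.

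Single genes of the epithelial antimicrobial and interleukin 1 lists were higher in dysplasia, while the lists as a whole were not. The 14 antimicrobial genes had a median difference of -0.12, with 9 below 0. The 11 interleukin 1 family genes had -0.02, with 6 below 0. The calprotectin subunit S100a8 was at 12.97, 12.93 and 13.25 in dysplasia, against 11.35, 12.66 and 11.99 in hyperplasia, higher in all dysplasia mice by 1.05 (SE 0.34). The interleukin 1 receptor antagonist Il1rn was at 10.38, 9.61 and 9.34 in dysplasia, against 8.14, 8.55 and 9.12 in hyperplasia, also without overlap, by 1.18 (SE 0.31). The chemokine genes Cxcl16 (0.69) and Ccl4 (0.62) separated the stages as well, out of 20 chemokine genes with a median of 0.07.

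Proliferation genes did not separate dysplasia from hyperplasia. The 29 mitosis genes had a median difference of -0.16 and no gene without overlap. The 27 replication genes had -0.26 and 1 lower gene without overlap, Orc6 (-0.35), which is 3.7% beside 3.71% of all genes. The mean of the mitosis list was 7.39, 8.23 and 7.76 in dysplasia, against 7.65, 8.10 and 8.05 in hyperplasia, so that dysplasia held both the lowest and the highest mouse. Dysplasia 1 was the lowest for replication too, at 6.79. Without dysplasia 1 the medians were -0.01 and 0.02. Among 19 p53 targets, Cdkn1a (-0.33), which codes for the inhibitor p21, and Phlda3 (-0.16) were lower without overlap (10.5%, beside 3.71% of all genes). Pmaip1 (0.39) was higher without overlap (5.26%, beside 5.07% of all genes). The 30 respiratory chain genes had a median of 0.01, the 20 hypoxia and glycolysis genes 0.20, with Bnip3 (0.60) and Pdk1 (0.41) separated, the 17 Notch genes 0.03, the 21 Wnt feedback genes -0.07, the 11 EGFR ligand and receptor genes -0.08 and the 22 xenobiotic and oxidative stress genes -0.12. Of these last 6 lists only the xenobiotic list had a difference past 1 in size, for Fmo2 (-1.34).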

How the data were processed

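The authors normalized the Affymetrix arrays by quantiles and the robust multi-array average (RMA) on Entrez-based probe sets and deposited log2 values; software versions are not given in the sources used here. The 24479 probe sets were named through the platform annotation (1 symbol for 23281, none for 1198, which were tested but not named). For 2 symbols with 2 probe sets the brighter was kept. RNA integrity and preparation day came from the study's sample table. Dysplasia minus hyperplasia was fitted with limma 3.58.1 (R 4.3.3) as 4 group means over all 12 arrays, with Benjamini-Hochberg adjustment over 24477 genes, and the script was tested on simulated data. Summaries used Python 3.11.15, pandas 2.3.3 and numpy 2.4.6. The genes named are the 10 highest and 10 lowest separated genes brighter than the median, up to 4 separated members of each of 47 lists (otherwise up to 2), and defining markers; further members and genes were named after their values were seen. The members and lists were chosen with earlier results of these data known. Each mouse gave 1 array. The p-values set the stage difference against a spread between mice that was pooled over all 4 groups, and the number of arrays limits precision. Promoter sequences are from RefSeq. Alternatives were other normalization, filters, moderation, weights, samples, covariates (integrity, age, muscle and interferon means) and blocks, and an unpaired t-test.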

Additional observations from a re-analysis of the deposited data

How the results depend on the processing

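With 3 mice a stage, no gene passed the adjusted test, and this held under every alternative except those named here. Leaving out 1 mouse at a time gave 0 to 2 called genes that were higher and 0 to 9 that were lower, the most without dysplasia 1, and 1 higher gene without hyperplasia 1. Genes with a difference over 1 ranged from 171 to 344 (higher) and 219 to 312 (lower), and genes without overlap from 2267 to 2677 (higher) and 1948 to 2391 (lower), since 2 against 3 mice separate more easily. The unpaired t-test, which the paper's methods list for continuous data of 2 groups, called 569 higher and 404 lower genes without adjustment. After Benjamini-Hochberg it called 0. For its gene sets the study used fold alone, an absolute log2 difference over 1, which is the cut of 1 used here.

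Without the 30% dimmest probe sets, 113 genes were over 1 and 794 were separated and higher, as fewer genes were tested. With the muscle mean as a covariate, 308 genes were over 1, and 2119 higher and 1391 lower genes were separated. With the interferon mean, 2200 and 1982 were separated. With both, 336 genes were below -1, and 3286 higher and 2434 lower genes were separated. The median of the MHC class I list was 0.13 with the interferon covariate and 0.14 with both. Why these counts grew was not tested.

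Alternatives chosen after seeing the data left out several mice. Without hyperplasia 1 and 2, 409 genes were over 1 and 397 below -1, and the muscle median was -0.03. With week 16 samples only, the counts were 614 and 693, and 4 lower genes were called. In both, hyperplasia is 1 mouse, assumed to vary like the others. Without dysplasia 1 and hyperplasia 2, 4061 higher and 3997 lower genes were separated.

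Same-numbered samples share only a number: deviations from the stage means correlated at -0.113, -0.036 and -0.02 over genes for numbers 1, 2 and 3. With the replicate block, 0 genes were called, and 1387 lower genes were separated. For the 20 leading genes, all 480 alternative values kept their sign, and 2 passed the threshold. Since these genes were picked as separated, many of the alternatives, such as leaving out mice, could not reverse the sign.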

Other observations

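The other samples of the series place some of these levels, as values with no test. The mean of the 21 Lce genes was 10.51, 10.79 and 9.84 in the normal tongues and 7.57, 7.28 and 8.10 in the tumors, so that dysplasia 1 (9.64) lay under all normal tongues and above all tumors, and dysplasia 2 and 3 (6.51 and 7.59) lay in or below the tumor range. The muscle mean was 8.50, 5.90 and 7.60 in the normal tongues and 6.56, 5.78 and 5.67 in the tumors, so that the 4 highest muscle levels of the series were those of normal 1, hyperplasia 1, normal 3 and hyperplasia 2. The interferon mean was 5.62, 5.96 and 5.41 in the normal tongues, and tumor 1 stood at 7.18, under dysplasia 1 (9.15) and above the other dysplasia, hyperplasia and normal samples. Gpnmb was at 6.41, 6.05 and 6.01 in the normal tongues and at 10.25, 7.21 and 5.42 in the tumors.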
